A study of Mus musculus with 6 samples.

Results

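A set of synaptic adhesion genes was read across the cell types of the degenerating mouse retina. It held 9 of the 32285 genes in the count tables and its members were set by symbol, as neurexins (Nrxn2, Nrxn3), neuroligins (Nlgn1, Nlgn2, Nlgn3), leucine-rich repeat transmembrane proteins (Lrrtm3, Lrrtm4), the secreted cerebellin Cbln2 and dystroglycan (Dag1). All 9 were present in the tables. All animals were rd10 mice (strain B6.CXB1-Pde6b-rd10/J), whose rods degenerate because of a mutation in the rod phosphodiesterase gene Pde6b, and both groups carried it. Eyes received saline or 20 ng of recombinant interleukin-27 (IL-27), a cytokine, by injection into the vitreous at postnatal day 18, and single-nucleus RNA sequencing was done on frozen retinas at postnatal day 20. Saline libraries 1, 2 and 6 and IL-27 libraries 4, 5 and 10 gave 3 libraries per group. No uninjected or wild-type retina was analysed here, so every level below belongs to a degenerating retina after an injection. The sources used here give 3 retinas per group and do not say whether a library held 1 retina, so the tests between groups measure the spread between libraries.

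Neurexins sit in the presynaptic membrane and bind partners across the synaptic cleft. Neuroligins and the LRRTM proteins are postsynaptic ligands, cerebellins are secreted and bridge neurexins to postsynaptic glutamate delta receptors, and dystroglycan binds neurexins through its extracellular sugar chains. In the retina, bipolar cells carry photoreceptor signals to amacrine and ganglion cells through ribbon synapses, amacrine cells make GABAergic and glycinergic synapses, and Muller glia wrap these synapses and contact the vitreous and blood vessels with their endfeet.

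The libraries held 8968 to 9965 barcodes and 36678332 to 48260748 unique molecular identifiers (UMIs, counts of RNA molecules). Of 56634 barcodes, 56205 passed the limits on counts and mitochondrial share, and 372 of the 56261 distinct barcode sequences (0.661%) occurred in more than 1 library. Xist, the RNA of the inactive X chromosome, was at 2029 CPM in saline library 2 and 1999 CPM in IL-27 library 5 and at or below 0.408 CPM in the other 4. For each library, the counts of all nuclei of a type were added up and scaled to a fixed total of UMIs (counts per 1e6 UMIs of that type, CPM). The 9 genes were kept out of the clustering that defined the types. Sums covered 15005 rods, 3321 cones, 9534 bipolar cells (BC), 485 horizontal cells (HC), 12315 amacrine cells (AC), 2045 retinal ganglion cells (RGC), 5303 Muller glia, 293 astrocytes and 1549 microglia. 6 of 8 astrocyte markers and 9 of 10 microglial markers were found in at least 10% of the nuclei of their class, and all markers of the other 7 classes were. A fixed list of 20 neuronal genes, among them Snap25, Syt1, Ptprd and Lsamp, made up 1.03% to 1.38% of Muller glia UMIs per library. It made up 0.456% to 0.730% of astrocyte UMIs and 0.288% to 0.574% of microglial UMIs. The paper reports Lsamp as lower in a Muller glia subpopulation than in the others, so these shares can include RNA that glia make themselves.

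Nrxn3 was highest in bipolar cells and high in amacrine and horizontal cells, Nlgn1 was highest in Muller glia, Lrrtm3 in astrocytes and Lrrtm4 in rod bipolar cells. Counts of nuclear RNA depend on gene length, so genes were set beside each other only per kilobase of gene span, at each gene's highest class. On that scale Nrxn3 stood at 13.6 CPM per kb in BC, Lrrtm3 at 7.91 in astrocytes, Nlgn1 at 7.53 in Muller glia and Cbln2 at 5.10 in AC. Lrrtm4 (3.35, BC), Nlgn2 (2.90, AC), Dag1 (2.67, astrocytes), Nrxn2 (2.0, AC) and Nlgn3 (1.39, astrocytes) followed. The order therefore differed from that of the CPM values, where Cbln2 was the lowest of the 9 genes.

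**Figure D1:**
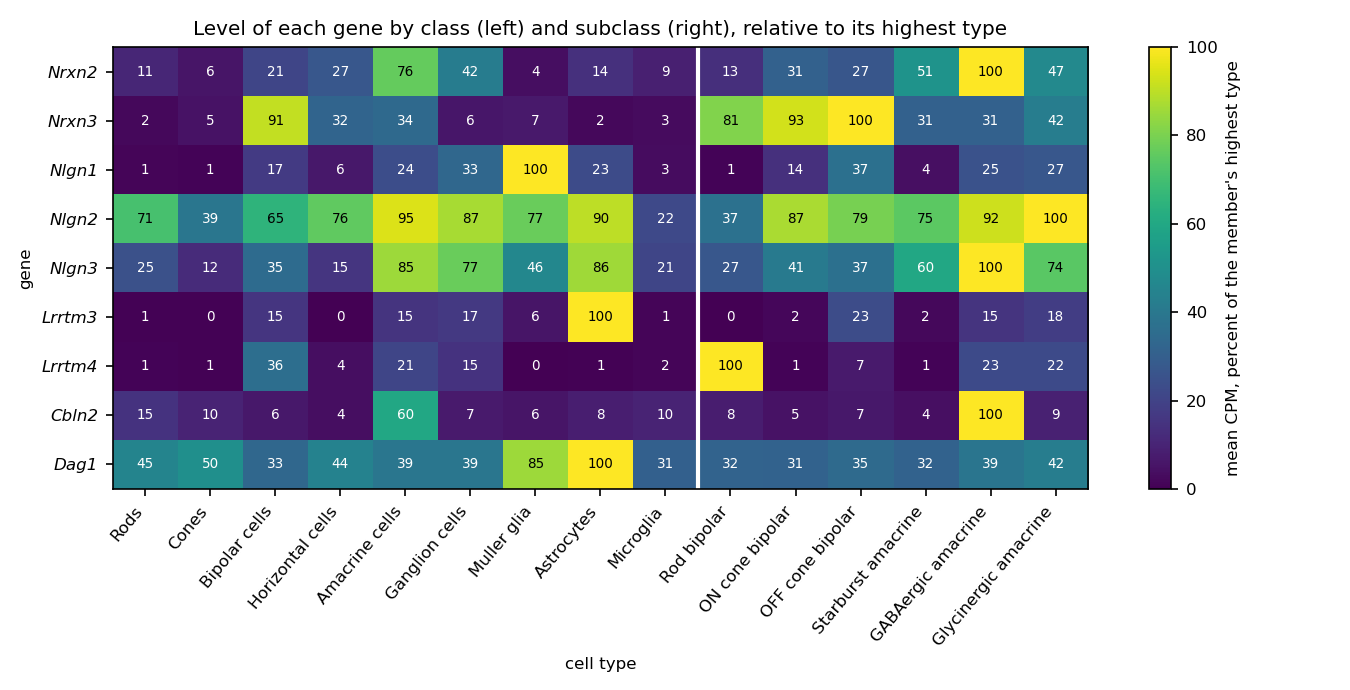
Mean CPM over 6 libraries of each gene (rows) in 9 classes and 6 bipolar and amacrine subclasses (columns), as a percent of the gene's highest type. Nrxn3 is highest in bipolar types, Nlgn1 in Muller glia, Lrrtm3 in astrocytes, Lrrtm4 in rod bipolar cells and Cbln2 in GABAergic amacrine cells, while Nlgn2 is spread over most types.

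Within each gene, types were compared inside the same library, since every library held every type. Over 117 pairs of neighbouring types in the order of the mean levels, 51 pairs kept that order in 6 of 6 libraries. Each of these had a two-sided exact permutation p = 0.03125, the smallest that 6 libraries allow. The Benjamini-Hochberg adjusted value was 0.0717, so no pair of neighbours passed an adjusted threshold of 0.05. The order counts below are given as libraries out of 6. For the pairs of types set side by side as ratios, the order held in 6 of 6 libraries, with the same exact permutation p.

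Nrxn3 (ENSMUSG00000066392; chr12:88722876-90334935, plus strand, GRCm38) is a neurexin gene and spans 1612 kb. Its mean level was 21891 ± 876 CPM in BC (SD, n = 6 libraries), 8244 ± 288 CPM in AC and 7800 ± 735 CPM in HC. In BC the saline libraries were at 21166, 21786 and 20921 CPM and the IL-27 libraries at 22335, 23358 and 21782 CPM. The 6 libraries thus lay close together, and BC were 2.66 times as high as AC, with single libraries between 2.59 and 2.69 times. Lower levels were found in Muller glia (1632 ± 208 CPM), RGC (1473 ± 155), cones (1163 ± 147), microglia (716 ± 111), astrocytes (528 ± 189) and rods (514 ± 94.8). AC lay above HC in 5 of 6 libraries, Muller glia above RGC in 5 of 6 and astrocytes above rods in 4 of 6, so these neighbours were not separated beyond their spread. A limit chosen after seeing the data left out 31 microglia and 4 astrocytes. These had at least 2% of their UMIs on the listed neuronal genes. Nrxn3 was then at 289 ± 105 CPM in microglia and 361 ± 154 CPM in astrocytes, below rods. The Nrxn3 level of Muller glia was 1614 ± 212 CPM under the same limit. BC, AC and HC, the interneurons of the inner nuclear layer, therefore stood apart from the other classes, since HC were 4.78 times as high as Muller glia, the next class below them.

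The subclasses did not hold all nuclei of their class, since 1669 of 9534 BC (17.5%) and 1917 of 12315 AC (15.6%) fell in clusters with too few or mixed subclass markers and belong to no subclass. Among the subclasses, Nrxn3 was at 24071 ± 1523 CPM in OFF cone BC, 22393 ± 461 in ON cone BC and 19481 ± 878 in rod BC. OFF and ON cone BC carry cone signals, and rod BC carry rod signals. Glycinergic AC held 10198 ± 319 CPM, GABAergic AC 7517 ± 351 and the cholinergic starburst AC 7514 ± 386. Every bipolar subclass lay above every amacrine subclass in mean level, and glycinergic AC lay above GABAergic AC in 6 of 6 libraries. OFF lay above ON cone BC in 5 of 6 libraries, and GABAergic above starburst AC in 3 of 6.

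To compare nuclei of unequal depth, each nucleus was thinned to 1000 UMIs and nuclei below that were left out. Nrxn3 was then found in 100% of BC, 99.8% of AC and 99.8% of HC, against 60.9% of RGC, 70.2% of Muller glia and 20.9% of microglia. Unthinned shares were 100% of BC, 96.1% of RGC and 38.2% of microglia, at median depths of 4346, 9497 and 2120 UMIs. Microglia form no synapses of their own and were taken as the reference for a low share, beside astrocytes at 23.2% and rods at 31.4%. Free RNA and nuclei with neuronal RNA both count in this reference.

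Nrxn2 (ENSMUSG00000033768; chr19:6418731-6544169, plus strand), the shorter neurexin gene of the set at 125 kb, was a low-level gene with its highest level in AC. AC held 251 ± 13.0 CPM, RGC 138 ± 10.5, HC 88.8 ± 10.4 and BC 68.2 ± 6.70. In AC the saline libraries were at 236, 244 and 259 CPM and the IL-27 libraries at 241, 253 and 271 CPM, so the groups overlapped. These 4 neuron classes were in this order in 6 of 6 libraries, with AC 1.82 times as high as RGC and 3.68 times as high as BC. Astrocytes (45.2 ± 10.4 CPM), rods (35.0 ± 3.52) and microglia (29.3 ± 6.29) did not separate from one another, with orders that held in 4 and 5 of 6 libraries, while astrocytes lay below BC in 6 of 6. Cones (18.3 ± 5.38) and Muller glia (12.2 ± 2.94) were lowest, with microglia above cones in 6 of 6 libraries.

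The order of the subclasses for Nrxn2 differed from that for Nrxn3. GABAergic AC were at 329 ± 16.4 CPM, starburst AC at 169 ± 11.5, glycinergic AC at 155 ± 14.8, ON cone BC at 102 ± 14.4, OFF cone BC at 87.6 ± 12.8 and rod BC at 44.1 ± 5.18. GABAergic AC were 7.46 times as high as rod BC. The amacrine cluster led by Olfm3, Tshr and Robo1 reached 499 ± 43.4 CPM and the one led by Adarb2, Rbfox1 and Fgd6 reached 390 ± 25.4. After thinning, 21.7% of AC and 2.11% of microglia had a Nrxn2 UMI (66.5% and 5.49% unthinned). The protein-coding gene Slc22a12 overlaps 7.19 kb of Nrxn2 on the opposite strand, and it held 1.09 CPM in AC. The antisense gene Gm14964 overlaps 1.30 kb on that strand. It held 70.8 CPM in astrocytes, its highest class, above Nrxn2 there (45.2 CPM). The strand setting used for counting is not given in the sources used here, so reads in these overlaps cannot be assigned to a strand.

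Nlgn1 (ENSMUSG00000063887; chr3:25426215-26332460, minus strand) encodes the neuroligin best known from excitatory synapses. Its highest class was not a neuron. Muller glia were at 6577, 6359 and 6400 CPM in the saline libraries and at 7467, 7413 and 6743 CPM in the IL-27 libraries, a mean of 6827 ± 495 CPM. RGC followed at 2272 ± 113 CPM, AC at 1625 ± 79.9, astrocytes at 1560 ± 199 and BC at 1167 ± 85.8. Muller glia were 3.0 times as high as RGC, with single libraries between 2.81 and 3.27 times. AC lay above astrocytes in only 3 of 6 libraries, so those classes were not separated. HC (438 ± 43.5 CPM), microglia (216 ± 50.8), rods (92.8 ± 12.3) and cones (60.6 ± 12.0) came in this order in 6 of 6 libraries, and Muller glia were 113 times as high as cones.

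The share of nuclei with a Nlgn1 UMI showed the same contrast. After thinning it was 98.5% in Muller glia (95% exact Clopper-Pearson interval 98.2% to 98.8%, which covers counting error only), 79.5% in RGC, 70.2% in astrocytes, 7.41% in rods, 6.93% in microglia and 5.10% in cones. Unthinned shares were 99.7% in Muller glia at a median of 4308 UMIs, 11.8% in microglia at 2120 and 10.5% in rods at 1285. The listed neuronal genes made up at most 1.38% of Muller glia UMIs in any library. No glial nucleus had 10% or more of its UMIs on those genes. A lower limit of 2%, chosen after seeing the data, left out 164 of 5303 Muller nuclei, 4 of 293 astrocytes and 31 of 1549 microglia. Nlgn1 was then at 6786 ± 502 CPM in Muller glia and 1570 ± 203 in astrocytes, close to the values above, and at 126 ± 43.9 CPM in microglia, where the level over all nuclei had been 1.71 times as high.

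The Muller glia fell into clusters that differed in Nlgn1. The main cluster, led by Wdr17, Abca8a and Adamtsl1, was at 7124 ± 275 CPM. A smaller cluster led by Fbln1 and Mecom was at 3742 ± 961 CPM. Muller nuclei were also clustered on their own, and the cluster highest in Fbln1, Frmpd4, Reln and Csmd3 was taken as its counterpart. The overlap of the smaller cluster and its counterpart was not counted. Fits without the cluster led by Fbln1 and Mecom, and its shares of nuclei, refer to this counterpart, which was unevenly shared between the libraries. It held 20.0%, 21.9% and 11.3% of Muller nuclei in saline libraries 1, 2 and 6, and 1.63%, 0.731% and 12.3% in IL-27 libraries 4, 5 and 10. IL-27 library 10 therefore resembled the saline libraries in this share.

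Bipolar cells were split by Nlgn1. OFF cone BC were at 2507 ± 172 CPM, ON cone BC at 958 ± 86.1 and rod BC at 72.3 ± 9.58. The BC in no subclass were at 1068 ± 114 CPM and held 16.5% of bipolar Nlgn1 UMIs, which these subclass values leave out. OFF cone BC were 34.7 times as high as rod BC, with single libraries between 27.5 and 41.1 times. Rod BC were thus at the level of rods and cones, and 6.15% of them had a Nlgn1 UMI after thinning, against 82.9% of OFF cone BC. Among AC, the glycinergic (1852 ± 144 CPM) and GABAergic (1721 ± 69.4) subclasses lay far above starburst AC (271 ± 34.9). At the level of single clusters, an OFF-type bipolar cluster led by Nxph1, Neto1 and Cdh8 (3367 ± 252 CPM) and an amacrine cluster led by Gm12128, Lrfn5 and Ebf3 (3476 ± 279) were the highest among neurons. Nxph1, which leads the first of these, encodes a neurexophilin, a secreted neurexin ligand.

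Nlgn2 (ENSMUSG00000051790; chr11:69823122-69837784, minus strand) encodes the neuroligin of inhibitory synapses and was low and spread over most classes. Its mean levels ran from 42.5 ± 1.75 CPM in AC and 40.4 ± 20.4 in astrocytes through RGC (39.2 ± 4.12), Muller glia (34.6 ± 5.14), HC (34.0 ± 10.9), rods (31.9 ± 4.58) and BC (29.3 ± 1.51) to cones (17.7 ± 4.43) and microglia (10.0 ± 1.86). Neighbours among the 7 highest classes were not separated, since each neighbour order held in at most 5 of 6 libraries. Classes further apart could separate, since AC (40.4 to 45.2 CPM) lay above BC (27.3 to 30.8 CPM) in every library. Cones and microglia were set apart, each below the class before it in 6 of 6 libraries. AC were 4.25 times as high as microglia.

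Among the subclasses, Nlgn2 was highest in glycinergic AC (45.0 ± 4.74 CPM) and GABAergic AC (41.5 ± 3.56). ON cone BC (39.3 ± 6.47), OFF cone BC (35.7 ± 3.32) and starburst AC (33.7 ± 6.2) followed. Neighbours among these subclasses did not separate, while glycinergic AC lay above OFF cone BC in every library. Rod BC were at 16.8 ± 2.46 CPM, below starburst AC in 6 of 6 libraries by a ratio of 2.01. After thinning, 4.45% of AC, 1.79% of rod BC and 0.816% of microglia had a Nlgn2 UMI (22.0%, 6.99% and 2.32% unthinned). Rod BC were therefore low for Nlgn1 and for Nlgn2.

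Nlgn3 (ENSMUSG00000031302; chrX:101299168-101325963, plus strand) encodes a neuroligin found at excitatory and inhibitory synapses. Astrocytes (37.3 ± 16.4 CPM) and AC (37.1 ± 2.52) were highest and not separated, with astrocytes above AC in 3 of 6 libraries. RGC (33.6 ± 2.49 CPM), Muller glia (20.1 ± 1.82) and BC (15.2 ± 2.09) followed, each below the class before it in 6 of 6 libraries. Rods (10.8 ± 1.87), microglia (9.01 ± 4.13), HC (6.66 ± 4.0) and cones (5.29 ± 1.98) were lowest, and neighbours among them overlapped. Rods (7.86 to 13.0 CPM) lay above cones (1.95 to 7.05 CPM) in every library. GABAergic AC reached 43.5 ± 4.15 CPM, glycinergic AC 32.4 ± 3.8, starburst AC 26.1 ± 6.32 and the bipolar subclasses 11.9 to 17.8. AC were 5.57 times as high as HC, with single libraries between 2.86 and 11.5 times, and the HC level rested on 30 UMIs in all. These lateral interneurons of the outer and inner retina thus differed in Nlgn3 while both were high in Nrxn3. The Xist-high libraries, saline 2 and IL-27 5, did not stand apart from the others in AC, at 34.6 and 36.3 CPM against 34.3 to 40.8 CPM.

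**Figure D2:**
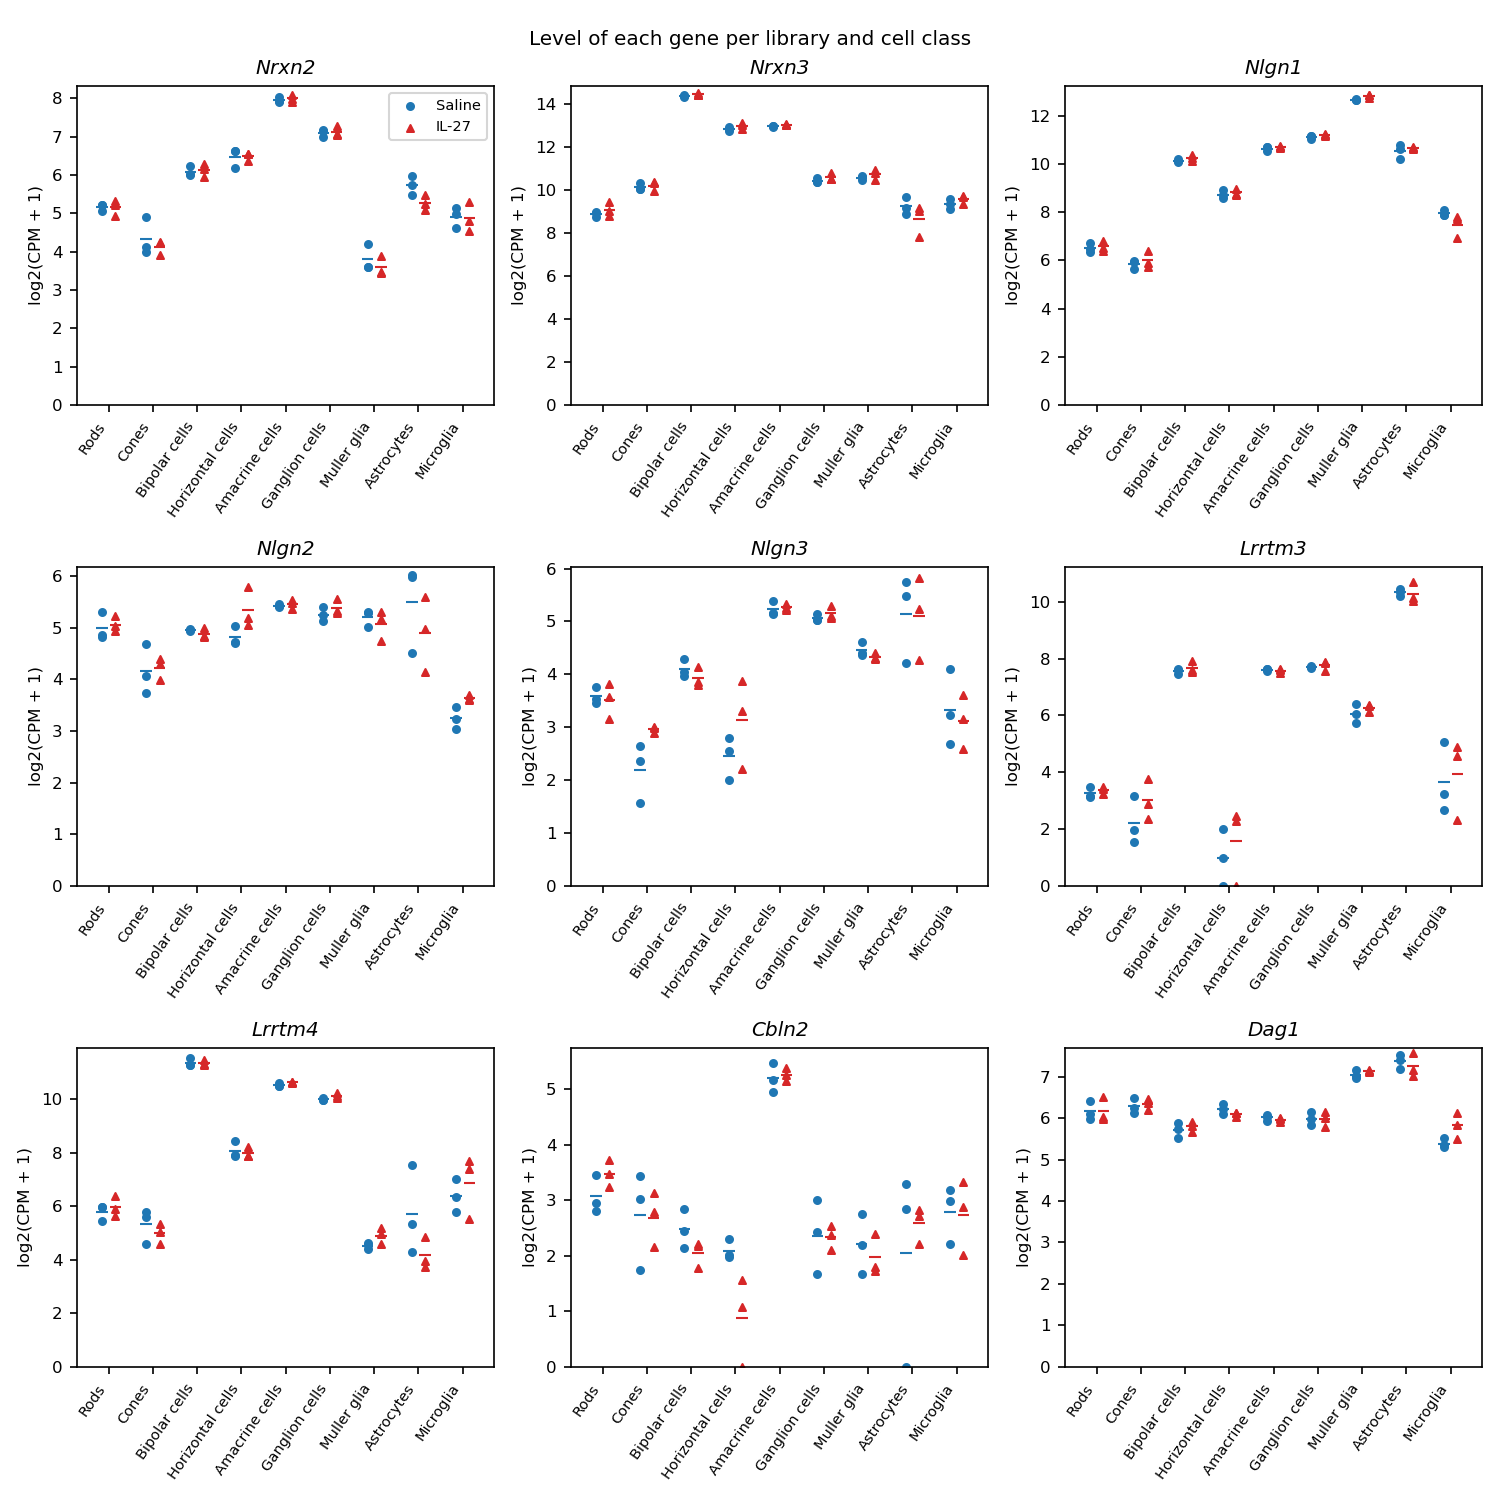
Level of each gene as log2(CPM + 1) in every library (points) and group mean (lines), by cell class, with saline in blue circles and IL-27 in red triangles. Differences between classes, such as Nlgn1 in Muller glia (6827 CPM) against cones (60.6 CPM), are far wider than the gaps between the groups within a class.

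Lrrtm4 (ENSMUSG00000052581; chr6:80018877-80810143, plus strand) encodes a postsynaptic transmembrane protein that binds heparan sulphate chains, including those on neurexins. Its level in BC was 2649 ± 207 CPM, above AC (1540 ± 81.7), RGC (1075 ± 78.3) and HC (265 ± 46.5) in that order in 6 of 6 libraries. Microglia (113 ± 64.3 CPM), rods (59.8 ± 14.0), astrocytes (49.9 ± 67.8), cones (36.9 ± 12.8) and Muller glia (25.9 ± 5.60) were low. The astrocyte mean rested on saline library 1, which stood at 187 CPM where the other 5 libraries were at 12.2 to 39.5 CPM. Lrrtm4 was thus a gene of inner retinal neurons and low in Muller glia, where Nlgn1 was highest.

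The bipolar signal came from rod BC. Rod BC were at 7552, 7077 and 7205 CPM in the saline libraries and at 7570, 6839 and 7804 CPM in the IL-27 libraries, while ON cone BC were at 67.0, 34.8 and 166 CPM and at 46.5, 55.1 and 77.9 CPM. Every rod bipolar library was far above every ON cone bipolar library, and the ratio of the means was 98.4, with single libraries between 43.3 and 203. OFF cone BC were at 526 ± 213 CPM, and rod BC were 14.0 times as high as they were. The larger of 2 bipolar clusters led by Prkca and Trpm1 held 33.1% of bipolar nuclei and 82.7% of bipolar Lrrtm4 UMIs, at 7514 ± 377 CPM. After thinning, 98.7% of rod BC (98.3% to 99.1%), 18.9% of OFF cone BC and 4.14% of ON cone BC (3.30% to 5.13%) had a Lrrtm4 UMI. The share in ON cone BC was close to those of microglia (4.35%) and rods (5.0%), and is read as near background. It lay above those of cones (2.63%) and Muller glia (2.29%). Unthinned, the shares were 99.7% of rod BC, 11.9% of ON cone BC and 6.96% of rods, at medians of 4148, 4236 and 1285 UMIs.

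Rod BC therefore carried Lrrtm4 at a high level with Nlgn1, Nlgn2 and Lrrtm3 near their lowest. OFF cone BC carried Nlgn1 and Lrrtm3 with less Lrrtm4 as a subclass mean, but their clusters differed. The cluster led by Nxph1, Neto1 and Cdh8, the highest bipolar cluster for Nlgn1, held 18 of 4258 OFF cone bipolar Lrrtm3 UMIs. The cluster led by Grik1 and Kcnip4 held 2309 of these Lrrtm3 UMIs and 7424 of 35577 Nlgn1 UMIs. Of 7948 OFF cone bipolar Lrrtm4 UMIs, 6619 fell in the cluster led by Zfp804b, Grik1 and Gm20754. That cluster was mixed, with 852 of its nuclei (73.4%) in OFF cone BC. Its 51 rod bipolar nuclei held 1821 Lrrtm4 UMIs and its 205 nuclei in no subclass held 3096. Amacrine cells also differed among themselves. GABAergic AC (1654 ± 114 CPM) and glycinergic AC (1635 ± 156) were alike in order, with GABAergic above glycinergic AC in 4 of 6 libraries, and starburst AC were at 63.0 ± 24.5 CPM. GABAergic AC were 26.2 times as high as starburst AC, and 47.2% of them and 3.45% of starburst AC had a UMI after thinning. A small amacrine cluster of 254 nuclei led by Col25a1, Tafa1 and Kcnip4 reached 6415 ± 880 CPM. The amacrine clusters led by Nrg1, Dab1 and Rbfox1 (55.5 ± 38.0 CPM) and by Olfm3, Tshr and Robo1 (65.1 ± 60.2) were at the level of starburst AC.

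**Figure D3:**
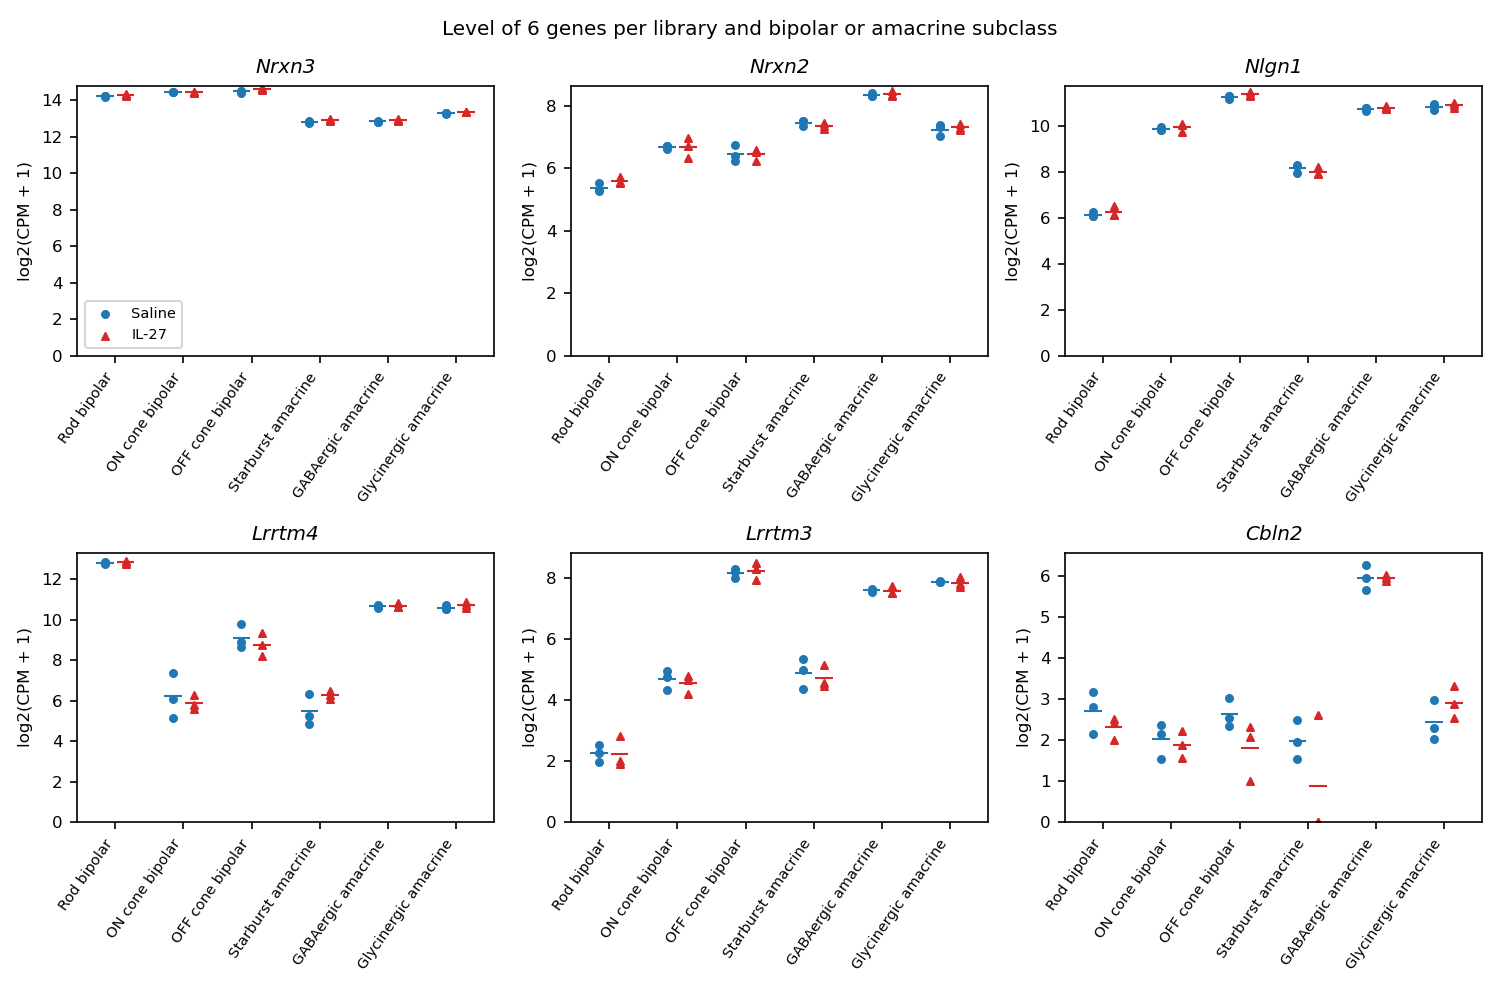
Level of 6 genes as log2(CPM + 1) in every library (points) and group mean (lines) in 3 bipolar and 3 amacrine subclasses, with saline in blue circles and IL-27 in red triangles. Rod bipolar cells are high in Lrrtm4 (7341 CPM) and low in Nlgn1 (72.3 CPM), OFF cone bipolar cells are high in Nlgn1 (2507 CPM), and Cbln2 is raised above the others in GABAergic amacrine cells (61.1 CPM).

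Lrrtm3 (ENSMUSG00000042846; chr10:63928472-64090277, minus strand) encodes a close relative of Lrrtm4 and had a different distribution. Astrocytes were at 1179, 1289 and 1399 CPM in the saline libraries and at 1648, 1045 and 1118 CPM in the IL-27 libraries, a mean of 1280 ± 220 CPM. The groups overlapped, and every library was far above the next class. RGC (212 ± 16.2 CPM), BC (196 ± 22.1) and AC (192 ± 7.36) followed. BC were not separated from RGC or from AC, with orders that held in 4 of 6 libraries, while RGC lay above AC in every library. Astrocytes were 6.05 times as high as RGC, with single libraries between 4.51 and 7.18 times, and 17.8 times as high as Muller glia (71.7 ± 11.7 CPM). Microglia (16.8 ± 12.4), rods (9.0 ± 1.09), cones (6.01 ± 3.94) and HC (2.07 ± 2.0) were at or near background. After thinning, 60.9% of astrocytes, 16.9% of RGC, 5.86% of Muller glia and 0.748% of microglia had a Lrrtm3 UMI, against 88.7%, 62.8%, 15.4% and 2.07% unthinned.

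Lrrtm3 lies wholly within a gene on the opposite strand, Ctnna3, which encodes an alpha-catenin of cell junctions. Ctnna3 was at 3807 CPM in astrocytes, 612 CPM in RGC and 243 CPM in Muller glia, and its levels followed those of Lrrtm3 over the 15 classes and subclasses (Pearson r = 0.987). These 15 points come from the same 6 libraries and include subclasses of 2 of the classes. The strand setting used for counting is not given in the sources used here, so reads of Lrrtm3 and Ctnna3 cannot be told apart from the counts alone.

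Among the bipolar subclasses, OFF cone BC were highest in Lrrtm3 at 298 ± 44.0 CPM, with ON cone BC at 23.9 ± 4.74 and rod BC at 3.89 ± 1.32. The BC in no subclass were higher still, at 548 ± 67.6 CPM, and held 4550 of 9076 bipolar Lrrtm3 UMIs (50.1%). In the clustering of all nuclei, the cluster led by Grik1 and Kcnip4, 11.4% of bipolar nuclei, held 68.3% of bipolar Lrrtm3 UMIs at 1388 ± 150 CPM, as high as astrocytes. Of its nuclei, 399 (36.7%) were OFF cone BC and 689 (63.3%) were in no subclass, so the OFF cone bipolar value leaves out much of its Lrrtm3. Grik1 encodes the kainate receptor subunit through which OFF bipolar cells receive glutamate. Glycinergic AC (234 ± 17.1 CPM) lay above GABAergic AC (193 ± 11.8) in 6 of 6 libraries, and starburst AC were at 28.2 ± 8.30. Starburst AC were thus low for Lrrtm3, Lrrtm4 and Nlgn1 alike.

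**Figure D4:**
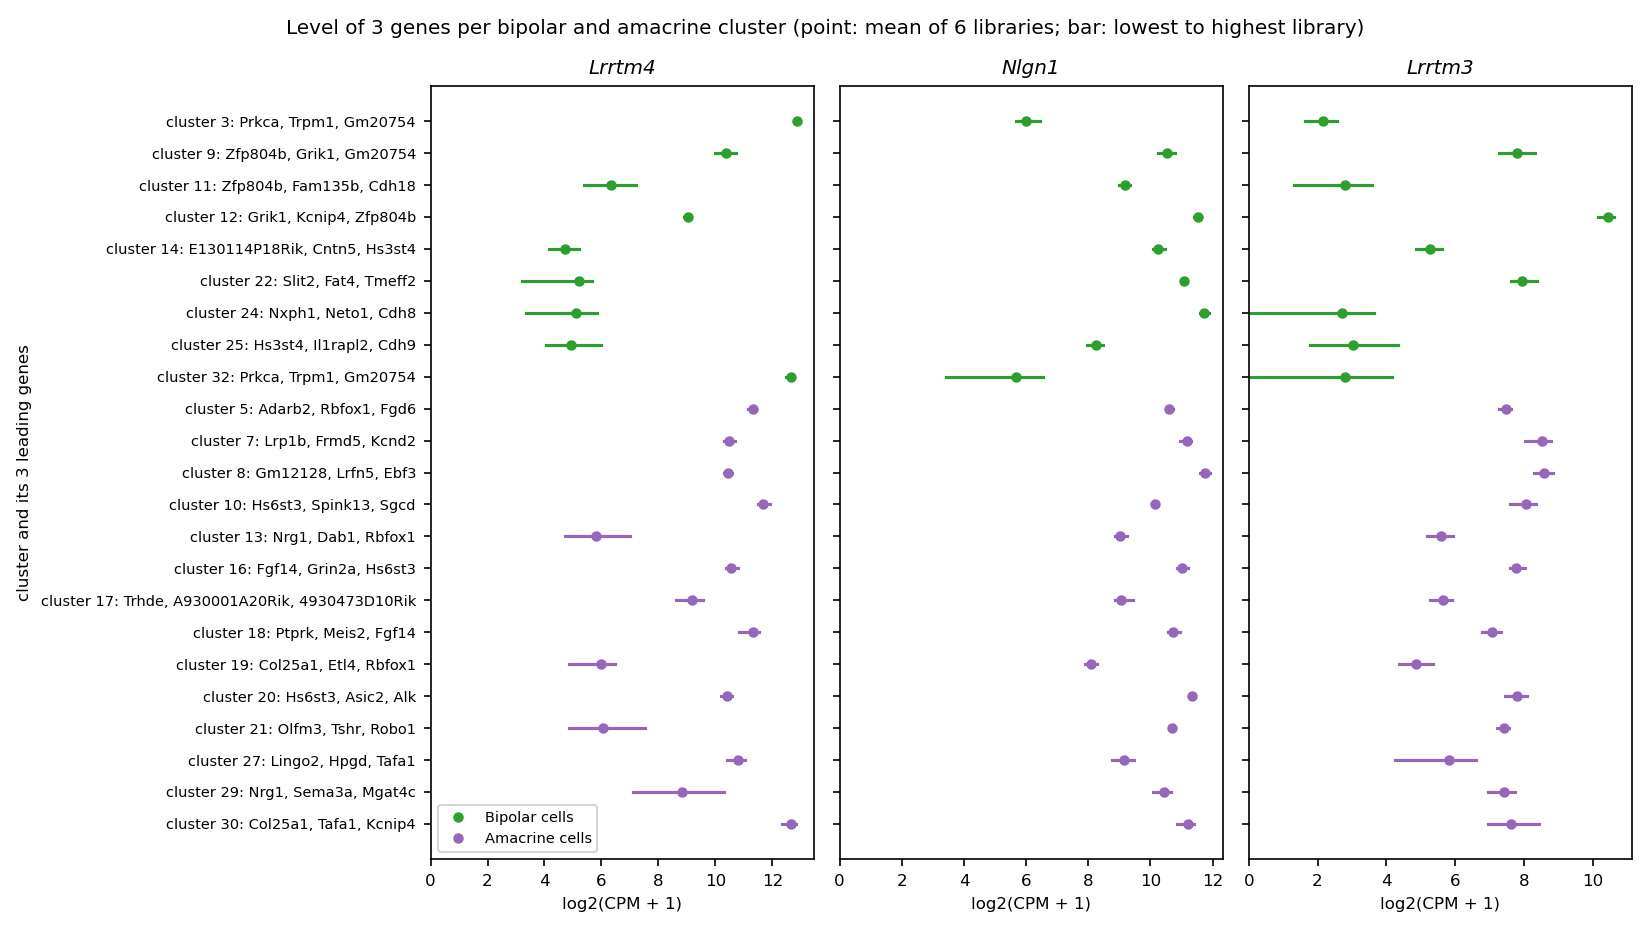
Level of Lrrtm4, Nlgn1 and Lrrtm3 as log2(CPM + 1) in each bipolar (green) and amacrine (purple) cluster, named by its 3 leading genes, with points at the mean of 6 libraries and bars from the lowest to the highest library. The 2 clusters led by Prkca and Trpm1 are high in Lrrtm4 and low in Nlgn1 and Lrrtm3, and the cluster led by Grik1 and Kcnip4 is the highest for Lrrtm3 (1388 CPM).

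Cbln2 (ENSMUSG00000024647, on chromosome 18) encodes a secreted cerebellin that binds neurexins and was highest in AC. AC were at 29.8, 34.8 and 43.1 CPM in the saline libraries and at 34.3, 37.3 and 40.4 CPM in the IL-27 libraries, a mean of 36.6 ± 4.74 CPM. Every other class was at 8.92 CPM or below. Neighbours among these low classes did not separate, with orders that held in at most 5 of 6 libraries. Rods (6.01 to 12.2 CPM) lay above Muller glia (2.18 to 5.75 CPM) and HC (0 to 3.90 CPM) in every library. GABAergic AC were at 61.1 ± 8.57 CPM, glycinergic AC at 5.66 ± 2.17 and starburst AC at 2.41 ± 2.20. GABAergic AC were 10.8 times as high as glycinergic AC, with single libraries between 7.13 and 16.2 times. The amacrine cluster led by Olfm3, Tshr and Robo1 was at 149 ± 25 CPM and the one led by Ptprk, Meis2 and Fgf14 at 103 ± 27.9. These clusters held 30.3% and 23.9% of amacrine Cbln2 UMIs, from 5.86% and 6.63% of the nuclei. The first is also the amacrine cluster highest in Nrxn2 and one of the lowest in Lrrtm4. After thinning, 5.34% of GABAergic AC and 0.606% of glycinergic AC had a UMI (22.5% and 2.49% unthinned), and the latter share was below that of rods (0.920%) and microglia (0.680%).

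Dag1 (ENSMUSG00000039952; chr9:108204634-108263958, minus strand) encodes dystroglycan, which links the dystrophin complex to extracellular ligands at Muller endfeet and photoreceptor synapses. Its 2 highest classes were glia, astrocytes at 159 ± 24.4 CPM and Muller glia at 135 ± 7.93, with astrocytes higher in 5 of 6 libraries. Muller glia were at 123, 128 and 142 CPM in the saline libraries and at 137, 140 and 142 CPM in the IL-27 libraries, so the groups overlapped. They were 1.72 times as high as cones (78.8 ± 8.05 CPM), the next class. Rods (71.5 ± 12.5), HC (70.5 ± 5.52), AC (62.4 ± 2.98), RGC (62.4 ± 6.83), BC (53.1 ± 5.21) and microglia (48.6 ± 11.6) formed a gradual series, in which HC lay above AC in 6 of 6 libraries and the other neighbours in 2 to 5. The bipolar and amacrine subclasses lay between 49.9 and 67.0 CPM, so no subclass stood out for Dag1. After thinning, 14.2% of astrocytes, 12.9% of Muller glia, 6.57% of rods and 4.28% of microglia had a Dag1 UMI (43.0%, 41.6%, 9.12% and 10.1% unthinned). The Muller cluster led by Fbln1 and Mecom was at 95.4 ± 27.5 CPM and the main cluster at 137 ± 6.71.

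The genes also differed in which other genes shared their pattern over the 15 classes and subclasses, among 12179 genes that reached 20 CPM in at least 1 type. The most similar patterns were those of Tmem191c (r = 0.96) and Serp2 (0.95) for Nrxn2, Steap2 (0.91) and Gm16754 (0.91) for Nrxn3, and Amotl1 (0.91) and Acp1 (0.90) for Nlgn1. For Nlgn2 they were Afdn (0.92) and Gabbr1 (0.87), and for Nlgn3 Lrrc4b (0.91) and Ebf4 (0.89). Gabbr1 encodes a GABA-B receptor subunit and Lrrc4b another synaptic adhesion protein. Ctnna3 (0.99) and Erbb4 (0.90) were most similar to Lrrtm3, 4930527B05Rik (0.94) and Asic2 (0.93) to Lrrtm4, Stc1 (0.97) and Prrt4 (0.96) to Cbln2, and Il17rd (0.95) and Prpsap1 (0.94) to Dag1. Between the 9 genes, Nlgn3 and Lrrtm3 were most alike (r = 0.81), followed by Nlgn1 and Lrrtm3 (0.77), and Nrxn3 and Dag1 were the most opposed (-0.57). These values describe 15 points that share libraries and, for the subclasses, nuclei.

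The treatment comparison asked whether any of the 9 genes differed between IL-27 and saline retinas in a cell type 2 days after injection. None did at an adjusted p of 0.05. Of 81 pairs of gene and class, 68 had enough counts to be tested and 0 were called by the edgeR quasi-likelihood test with Benjamini-Hochberg adjustment over all genes of a class, where 0.00669% of all gene and class pairs were called. The smallest adjusted p was 0.479 by edgeR. At an unadjusted p under 0.05 there were 2 pairs, against 4.21% of all pairs. DESeq2 called 0 of the 68 (0.113% of all pairs) and gave 0 an unadjusted p under 0.05 (1.87% of all pairs). The 3 libraries of one group lay wholly above those of the other in 6 pairs, against 9.43% of all pairs. The 13 untested pairs were Nrxn2, Nlgn2, Nlgn3, Lrrtm4 and Cbln2 in astrocytes, Nlgn2, Nlgn3 and Cbln2 in microglia, Nlgn3 and Lrrtm3 in cones, and Nlgn3, Lrrtm3 and Cbln2 in HC.

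The intervals show how large a difference these data could still hold. Log2 fold changes of IL-27 over saline ran from -0.54 (Cbln2 in BC) to 0.73 (Lrrtm4 in microglia), 44 above and 24 below 0, with a median of 0.06 where that of all genes was near 0. In 59 of the 68 pairs the 95% interval lay within a log2 change of 1 in either direction, and in 44 within 0.5. The precision was best where the level was high. For Nrxn3 the log2 fold change was 0.10 in BC, with an interval of -0.03 to 0.22, and 0.08 in AC, with an interval of -0.05 to 0.20. It was poorest for low genes in small classes, such as Lrrtm3 in microglia, with an interval of -1.31 to 1.70.

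**Figure D5:**
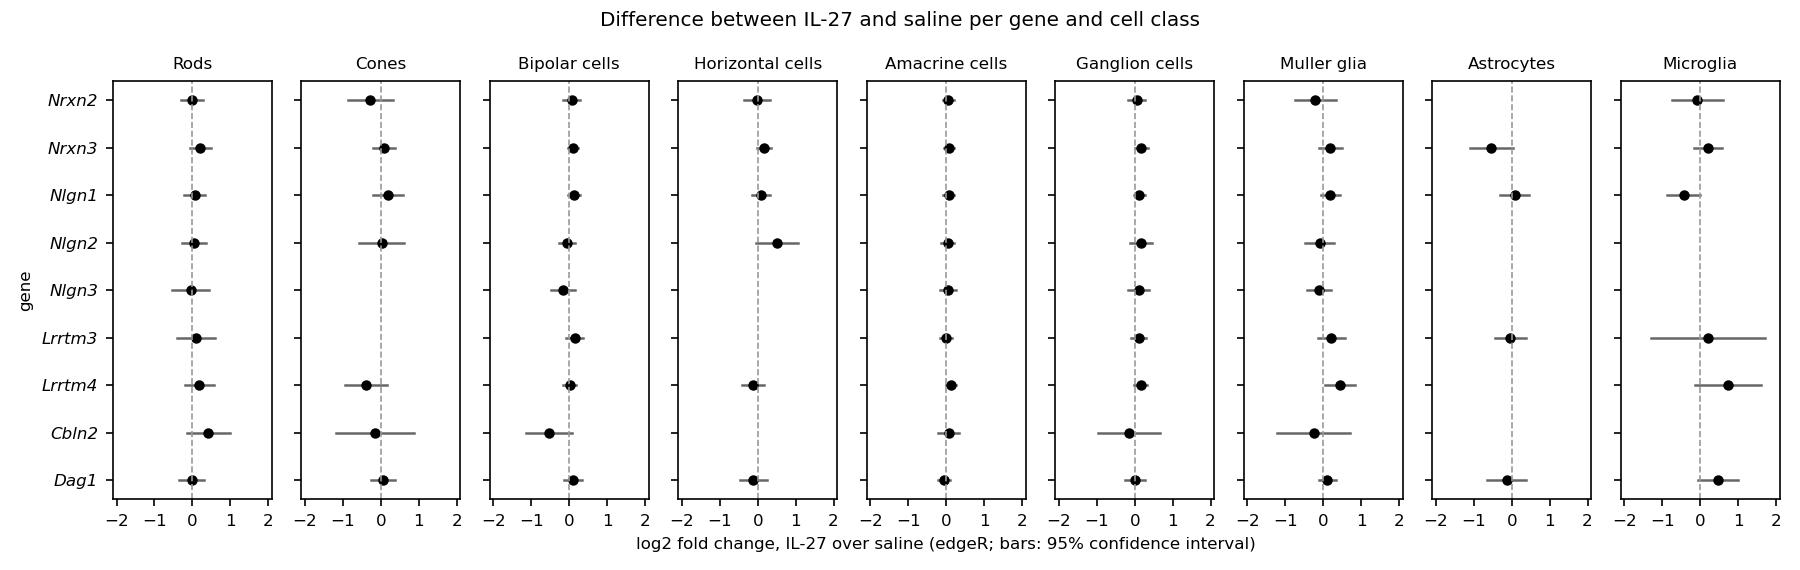
Log2 fold change of IL-27 over saline for each gene (rows) in each of 9 classes (panels), with 95% confidence intervals from edgeR and 3 libraries per group. Pairs with too few counts have no point, and no pair passed an adjusted p of 0.05.

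In 4 pairs of gene and neuron class, named after their values were seen, the groups did not overlap while the unadjusted edgeR p was 0.0652 to 0.214. In AC, Nrxn3 was at 7887, 8201 and 8063 CPM in the saline libraries and at 8311, 8741 and 8262 CPM in the IL-27 libraries. All IL-27 libraries were above all saline libraries, and the log2 fold change of 0.08 had an edgeR adjusted p of 1.0. In RGC, Nlgn1 was at 2249, 2259 and 2086 CPM against 2283, 2432 and 2325 CPM, again without overlap, with a log2 fold change of 0.12 (edgeR adjusted p = 1.0). Lrrtm4 in AC was at 1438, 1559 and 1440 CPM against 1606, 1625 and 1573 CPM, with a log2 fold change of 0.12 (edgeR adjusted p = 1.0). Nlgn2 in HC was at 25.4, 31.6 and 25.1 CPM against 35.4, 32.1 and 54.6 CPM, with a log2 fold change of 0.51 (edgeR adjusted p = 0.977) that rested on 485 nuclei. None of these 4 pairs passed the test.

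Nlgn1 in microglia was the only pair of gene and class with both an unadjusted p under 0.05 and groups that did not overlap, a combination found in 3.04% of all pairs. It was at 274, 234 and 235 CPM in the saline libraries and at 122, 210 and 219 CPM in the IL-27 libraries. The IL-27 libraries were all lower, IL-27 library 4 by the most. The edgeR log2 fold change was -0.44 ± 0.20 (SE), with an interval of -0.87 to -0.0028, an unadjusted p = 0.0487 and an adjusted p = 0.999. Of all genes tested in microglia, 3.47% had an unadjusted p under 0.05 and 0.0% passed the adjusted test. Without IL-27 library 4 it was -0.22 (edgeR adjusted p = 0.999). The share of microglia with a Nlgn1 UMI after thinning, 6.93%, was below that of rods (7.41%), while the level was above that of rods in 6 of 6 libraries (216 against 92.8 CPM). Of the microglial UMIs, 0.490%, 0.472% and 0.574% fell on the listed neuronal genes with saline, and 0.376%, 0.288% and 0.492% with IL-27. Without the 31 nuclei with at least 2% of their UMIs on such genes, 3 to 8 per library, Nlgn1 was at 135, 123 and 148 CPM in the saline libraries and at 49.3, 182 and 119 CPM in the IL-27 libraries. The groups then overlapped, with a log2 fold change of -0.18 (edgeR unadjusted p = 0.575, adjusted p = 0.998).

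Under that limit, 3 pairs of gene and glial class, named after their values were seen, had an unadjusted p under 0.05, with Nrxn3 in opposite directions in microglia and in astrocytes. In microglia it was at 237, 189 and 215 CPM in the saline libraries and at 311, 478 and 307 CPM in the IL-27 libraries. The IL-27 libraries were all higher, with an edgeR log2 fold change of 0.79 ± 0.19 (unadjusted p = 0.000813, adjusted p = 0.998), where 3.09% of all genes had an unadjusted p under 0.05. With all 1549 microglia it was 0.20 (edgeR unadjusted p = 0.254) and the groups overlapped. In astrocytes Nrxn3 was at 578, 471 and 421 CPM against 292, 182 and 221 CPM. The IL-27 libraries were all lower, with a log2 fold change of -1.07 ± 0.22 (edgeR unadjusted p = 9.9e-05, adjusted p = 0.122), where 3.52% of all genes had an unadjusted p under 0.05. With all 293 astrocytes it was -0.54 (edgeR unadjusted p = 0.0656), and the groups overlapped. The 4 astrocytes left out came from saline library 6 (2 nuclei) and IL-27 libraries 4 and 5 (1 each), so these values turned on single nuclei. Lrrtm4 in microglia also had a low unadjusted p under that limit, with a log2 fold change of 1.18 ± 0.47 (edgeR unadjusted p = 0.0224, adjusted p = 0.998), against 0.73 with all microglia (edgeR unadjusted p = 0.0957). It was at 31.9, 25.9 and 53.2 CPM in the saline libraries and at 61.2, 144 and 19.8 CPM in the IL-27 libraries, so the groups overlapped. None of the 3 passed the adjusted test.

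The log2 fold change of Nlgn1 in Muller glia, described after its values were seen, differed between fits that left out a library or a cluster. All IL-27 libraries lay above all saline libraries (values above), with a log2 fold change of 0.18 ± 0.11, an unadjusted p = 0.131 and an adjusted p = 0.697 by edgeR. Of all genes tested in Muller glia, 0.0358% passed the adjusted test and 9.32% had an unadjusted p under 0.05. Without IL-27 library 10 it was 0.25 (edgeR adjusted p = 0.0160), a call made in a comparison where 2.89% of all genes were called. Without the cluster led by Fbln1 and Mecom the saline libraries were at 7120, 6982 and 6760 CPM and the IL-27 libraries at 7494, 7436 and 7105 CPM. The log2 fold change was then 0.08 and the edgeR adjusted p was 0.983. IL-27 library 10 was the IL-27 library with the most nuclei of that cluster, 12.3%, against 1.63% and 0.731%. The cluster was picked by genes that the paper reported from these same libraries. What accounted for the differences between the fits was not tested.

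Lrrtm4 in Muller glia was the other pair of gene and class with an unadjusted p under 0.05, also described after its values were seen. It was at 23.8, 20.1 and 22.7 CPM in the saline libraries and at 29.96, 35.2 and 23.3 CPM in the IL-27 libraries. The groups overlapped, and the values were among the lowest of Lrrtm4 in any class. The edgeR log2 fold change was 0.43 ± 0.18 (unadjusted p = 0.0333, adjusted p = 0.479), and 0.43 without the cluster led by Fbln1 and Mecom. With doublets kept in, it was -0.36 (edgeR adjusted p = 0.991).

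The bipolar and amacrine subclasses gave 54 pairs, of which 50 were tested. edgeR called 0 of them, where 0.00413% of all gene and subclass pairs were called, and 1 had an unadjusted p under 0.05, against 3.47% of all pairs. DESeq2 also called 0 and gave 1 an unadjusted p under 0.05 (1.12% of all pairs). Groups did not overlap in 8 pairs, against 8.93% of all pairs, and 0 pairs had both, against 2.53%. Log2 fold changes ran from -0.59 (Lrrtm4 in ON cone BC) to 0.71 (Lrrtm4 in starburst AC). The latter was the pair with the low p, named after its values were seen, in a subclass where 3.45% of all genes had an unadjusted p under 0.05 and 0.0% passed the adjusted test. Lrrtm4 in starburst AC was at 28.2, 37.2 and 78.6 CPM in the saline libraries and at 67.8, 88.0 and 78.3 CPM in the IL-27 libraries. The groups overlapped, the edgeR unadjusted p was 0.0162 and the adjusted p 1.0, and without saline library 6 the log2 fold change was 1.24 (edgeR adjusted p = 0.197). With all nuclei summed it was -0.32. In rod BC, where Lrrtm4 was highest, the log2 fold change was 0.04, with an interval of -0.11 to 0.19.

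Whether the difference between IL-27 and saline itself varied between the classes was tested in 1 edgeR fit over all classes. None of the 9 genes passed, where 0.801% of all genes did. The smallest value was that of Lrrtm4 (unadjusted p = 0.0205, edgeR adjusted p = 0.60), followed by Cbln2 (unadjusted p = 0.0978, adjusted p = 0.922). At an unadjusted p under 0.05, 1 of the 9 genes and 6.22% of all genes were found.

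The wider adhesion machinery was read from 4 lists, which held 110 other genes, 109 of them in the tables (Nlgn4l was not matched). They gave 723 tested pairs of gene and class, of which edgeR called 0, with 32 higher and 19 lower in IL-27 at an unadjusted p under 0.05, where 1.99% of all pairs were higher and 2.23% lower by that measure. The other neurexin ligands, with the calsyntenins, neurexophilins, C1q-like proteins and glutamate delta receptors, had 4 higher and 0 lower of 107. The scaffolds that anchor neurexins and neuroligins, such as Cask, Dlg4, Gphn and the Shank genes, had 4 higher and 4 lower of 154. The dystroglycan ligands, complex and glycosylation genes had 7 higher and 6 lower of 196, and the other adhesion organisers, such as the Slitrk, teneurin and latrophilin genes, 17 higher and 9 lower of 266. Median log2 fold changes per list and class lay between -0.12 and 0.19, where the medians of all genes were near 0.

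DESeq2 called 1 of these 723 pairs. Dlg2, which encodes the synaptic scaffold PSD-93, had a DESeq2 log2 fold change of -0.66 in Muller glia (DESeq2 adjusted p = 0.00692). The edgeR log2 fold change was -0.66 ± 0.15 (unadjusted p = 0.0017, adjusted p = 0.181). Without the cluster led by Fbln1 and Mecom the edgeR log2 fold change of Dlg2 was 0.04 (adjusted p = 0.993).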

How the data were processed

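Nuclei were isolated from frozen retinas and sequenced on the 10x Genomics platform. The authors counted UMIs per gene and barcode with Cell Ranger, and the deposited files hold these raw counts as filtered matrices. The submitters' processing notes name Cell Ranger 9.0.1 and Seurat 5.2.1, while the file headers name an earlier Cell Ranger release. The genome build is not given in the sources used here. Groups were taken from the treatment label.

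Limits on a barcode were over 500 UMIs, 200 or more genes detected and a mitochondrial share under 5%. Doublets were removed by Scrublet score at an expected rate of 8% reduced by each library's share of homotypic pairs, and Louvain clusters (resolution 0.25, scanpy 1.11.5, 2000 variable genes, 25 components, the 9 genes left out) were named from marker lists. Bipolar and amacrine nuclei were clustered again at resolution 0.5 for the subclasses, which left 1669 BC and 1917 AC in no subclass. Sums left out nuclei whose log2 UMI total lay more than 2 median absolute deviations from its median, and 1129 nuclei of clusters with mixed or insufficient markers were set aside, 992 of them in 1 cluster near the bipolar cells.

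UMIs summed per library and type were tested with edgeR 4.0.16 (quasi-likelihood, filterByExpr at 10 counts, TMM, R 4.3.3), two-sided, with no covariate. DESeq2 1.42.0 was an alternative. Per-library sums held 161318 UMIs (astrocytes) to 14269074 UMIs (AC). Orders between types were compared by exact sign-flip permutation of log2(CPM + 1). Gene positions and spans come from GENCODE release M21 (GRCm38), which held 99.6% of the gene IDs in the tables. Intervals of shares cover counting error only, and nuclei of a library are not independent samples.

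Values per library were given for pairs of gene and type past an adjusted p of 0.05, and for pairs with an unadjusted p under 0.05 whose groups did not overlap. Other pairs named are marked as chosen after their values were seen. The 4 gene lists were counted without a set test, leaving out 1 listed gene that is not reported here, and genes past the threshold were to be named. The 2 genes most similar to each member were named. The 9 genes and the lists were chosen with earlier results of these data known. No sequences were used.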

Additional observations from a re-analysis of the deposited data

How the results depend on the processing

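Precision was limited by 3 libraries per group and, in astrocytes, HC and microglia, by few nuclei. No paired analysis was possible because the library numbers 1, 2 and 6 of the saline group and 4, 5 and 10 of the IL-27 group do not recur between groups. The count of the 9 genes called over the classes was 0 in the reported analysis and 0 under DESeq2, DESeq2 size factors within edgeR, library totals without TMM, a filter at 30 counts, Xist as a covariate, all nuclei, doublets kept, a Louvain resolution of 0.5, Muller glia without the cluster led by Fbln1 and Mecom, and, both chosen after seeing the data, glia without nuclei with at least 2% of UMIs on neuronal genes and the bipolar cluster set aside kept in. The limit of 10% on neuronal genes chosen earlier left out 0 nuclei and gave no other value. The count was 1 with no filter on low counts, where Lrrtm4 in astrocytes had a log2 fold change of -2.09 (edgeR adjusted p = 0.0209, 0.101% of astrocyte genes called) that rested on saline library 1. Leaving out 1 library at a time gave 0 to 1, the 1 being Nlgn1 in Muller glia without IL-27 library 10. Over the subclasses the count stayed at 0 under every alternative run, and doublets kept and the other Louvain resolution were not run there. Genes called over the 9 classes numbered 7, against 118 by DESeq2, 11 with DESeq2 size factors, 516 with no filter, 3 with doublets kept and 3 to 415 leaving out 1 library. Genes whose difference varied between classes numbered 146, and 54 to 269 leaving out 1 library, with none of the 9 among them. Of 224 log2 fold changes over 16 pairs of gene and type and 17 alternatives, 221 kept their direction and their side of the threshold. Lrrtm4 reversed to -0.36 in Muller glia with doublets kept and to -0.32 in starburst AC with all nuclei. The causes were not tested. The class of highest level was the same for 9 of 9 genes with all nuclei or with doublets kept, for 8 of 9 in the saline libraries alone (Nlgn2 was highest in astrocytes) and in the IL-27 libraries alone (Nlgn3 was highest in AC), and for 7 of 9 by the share of nuclei after thinning, where Nlgn2 was highest in astrocytes (5.19%) and Lrrtm4 in AC (47.0%).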

Other observations

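Vascular nuclei were few and entered no comparison. In pericytes (117 nuclei), the contractile cells of capillaries, Lrrtm3 was at 246, 243 and 122 CPM in the saline libraries and at 108, 151 and 202 CPM in the IL-27 libraries, from 62 UMIs in all. In endothelial cells (237 nuclei) it was at 0 to 15.4 CPM, from 4 UMIs. After thinning, 16.4% of pericytes (exact Clopper-Pearson interval 10.0% to 24.6%) and 0.930% of endothelial cells (0.113% to 3.32%) had a Lrrtm3 UMI. Pericytes were thus at the level of RGC, BC and AC for Lrrtm3, with the same limit from Ctnna3 on the opposite strand. Dag1 was at 125 ± 17.9 CPM in pericytes and 72.9 ± 18.6 CPM in endothelial cells (SD, n = 6 libraries), the former close to Muller glia. Nlgn2 was at 51.5 ± 28.6 CPM in pericytes and 11.7 ± 12.1 CPM in endothelial cells, from 18 and 8 UMIs. Lrrtm4 in pericytes ran from 0 to 1792 CPM between libraries, so its mean describes no library well.

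The cluster set aside near the bipolar cells (992 nuclei, led by Cntn5, Adarb2 and Zfp804b) was at 23122 ± 1077 CPM for Nrxn3, within the range of the bipolar subclasses. It was at 221 ± 30.3 CPM for Lrrtm3, 236 ± 39.9 CPM for Nlgn1 and 99.9 ± 21.9 CPM for Lrrtm4. Its Lrrtm3 level was thus near that of OFF cone BC, and its Nlgn1 level lay between those of rod BC and ON cone BC.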
